A study of Mus musculus with 45 samples.

Results

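A set of 9 genes that mark neural progenitor cells, Fabp7, Nes, Pax6, Olig1, Olig2, Ptn, Sparcl1, Serpine2 and Gpm6b, were followed with long-read RNA sequencing while progenitors were reprogrammed towards pluripotency. They were chosen by name with earlier results of these data known, and all 9 were found among the 23575 genes of the gene table. The mouse neural progenitor cells (NPC) were made from O4G, an Oct4-GFP embryonic stem cell line that itself goes back to the line R1, and grew in NPC medium with EGF and FGF-2. They carried the genotype OKMS-Luciferase-AS or OKS-Luciferase-AS, stably transfected reprogramming factors that doxycycline induces, or no factors (wild type, WT). OKMS stands for Oct4, Klf4, Myc and Sox2, and OKS lacks Myc. The role of the luciferase element is not stated in the labels, both factor lines carry it, and the WT cells do not. Induction took place in medium with fetal bovine serum and LIF (FBS-LIF) with 1 µg/mL doxycycline, in which WT cells were also kept for 2 days. In some OKMS and OKS cultures 2i-LIF, which holds kinase inhibitors beside LIF and no serum, replaced it. The change was at day 6 for the libraries of days 14 and 20 and is not given for those of day 18. Embryonic stem cells (ESC) of the lines O4G, R1 and R1 clone 3 were kept in 2i-LIF.

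The 45 libraries were 22 direct cDNA libraries on R9 flow cells and 23 PCR cDNA libraries on R10 flow cells of Oxford Nanopore. Each time point of OKMS and of OKS in 1 medium was at most 1 library per chemistry, while WT NPC were 2 libraries in each chemistry and WT day 2 cells 1 in R9 and 2 in R10. The gene table gave values scaled to library size (CPM), from which whole reads were recovered: 448250 to 1391635 reads per R9 library and 567129 to 4245818 per R10 library. A count of 3 reads, used here as the floor for a gene at 0, corresponded to 2.16 to 6.69 CPM in R9 and 0.707 to 5.29 CPM in R10. The labels do not say whether libraries of a group came from separate cultures, or whether libraries of a condition in R9 and R10 shared RNA, so p-values measure the spread between these libraries only. Among R10 libraries, mitochondrial genes took 0.124 to 0.319% of reads in the WT libraries and 1 R1 ESC library whose label carries no n number, and 0.730 to 2.35% in the others. In bulk RNA, fewer cells expressing a gene and less RNA per cell cannot be told apart. The labelled cell types had their defining markers. A list of 35 radial glia and progenitor genes summed to 10631 to 11567 CPM in R10 NPC against 1334 to 1627 CPM in R10 ESC. Of the 35, 33 were above 0 in each R10 NPC library, and 23 to 29 in the R10 ESC libraries. The 11 pluripotency markers other than Pou5f1 summed to 15.4 to 28.6 CPM in R10 NPC against 10895 to 13630 CPM in R10 ESC.

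Neural progenitors in culture resemble radial glia, the dividing cells that line the ventricles of the developing brain and give rise to neurons and glia. EGF and FGF-2 keep them dividing, and many lines of this kind turn on the oligodendrocyte lineage factors of the ventral neural tube. To become pluripotent, a progenitor has to shut this programme down and start that of the stem cell. Fabp7, also called brain lipid-binding protein, carries fatty acids in radial glia, and Nes encodes nestin, an intermediate filament of progenitors. Olig1 and Olig2 are basic helix-loop-helix transcription factors of the oligodendrocyte lineage, and Pax6 is a paired-box and homeobox transcription factor of the dorsal forebrain and the eye. Ptn encodes the heparin-binding growth factor pleiotrophin. Sparcl1, or hevin, is a matrix protein secreted by glia, and Serpine2, or protease nexin 1, is a secreted inhibitor of thrombin and other serine proteases. Gpm6b encodes a membrane glycoprotein of neurons and glia.

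The genes lie on 8 chromosomes of GRCm38 (mm10). By GENCODE M21, the spans are Fabp7 on chromosome 10 from 57784881 to 57788450, Nes on chromosome 3 from 87971078 to 87980451 and Pax6 on chromosome 2 from 105668900 to 105697364, all on the plus strand. Olig2 (91225457 to 91228677) and Olig1 (91269772 to 91271933) are neighbours on the plus strand of chromosome 16, with 41094 bases between them. Gpm6b is on the plus strand of chromosome X from 166238911 to 166388988. Ptn (chromosome 6, 36714929 to 36810220), Sparcl1 (chromosome 5, 104079111 to 104113733) and Serpine2 (chromosome 1, 79794197 to 79861180) are on the minus strand. All 9 are protein-coding.

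Promoter sequences were taken from RefSeq (GRCm38.p6) for the gene with the earliest interpolated day of reaching 50% of its NPC level (Olig2), the ones with the latest (Gpm6b and Pax6) and Fabp7, the radial glia marker. They are shown 5′ to 3′ on the plus strand, stopping before the first GENCODE exon or the RefSeq start, whichever comes first: chr16:91225300-91225456 for Olig2, chr10:57784673-57784880 for Fabp7, chrX:166238693-166238910 for Gpm6b and chr2:105668646-105668895 for Pax6. Capitals mark matches, on either strand, to CCAAT, to GGGNGGG (the KLF motif), to TGGGAA (RBPJ, the DNA-binding partner of Notch) or to ACAAAG or ACAATG (SOX). The sequences belong to annotated starts, and their use in these cells was not tested. The assembled Pax6 transcripts begin only at 105674533, and the Fabp7 transcript with the highest mean TPM in NPC begins upstream at 57730317.
Olig2: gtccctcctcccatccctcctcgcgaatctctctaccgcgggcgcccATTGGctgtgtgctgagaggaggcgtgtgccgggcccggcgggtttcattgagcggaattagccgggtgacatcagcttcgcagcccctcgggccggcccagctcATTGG
Fabp7: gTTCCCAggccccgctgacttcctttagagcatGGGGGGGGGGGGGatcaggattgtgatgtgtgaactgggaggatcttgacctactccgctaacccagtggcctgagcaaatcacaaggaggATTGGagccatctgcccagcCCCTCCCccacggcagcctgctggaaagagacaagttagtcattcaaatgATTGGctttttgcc
Gpm6b: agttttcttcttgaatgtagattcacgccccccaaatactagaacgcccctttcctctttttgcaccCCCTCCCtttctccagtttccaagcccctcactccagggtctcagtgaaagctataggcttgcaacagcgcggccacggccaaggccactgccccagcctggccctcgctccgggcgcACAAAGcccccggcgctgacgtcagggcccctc
Pax6: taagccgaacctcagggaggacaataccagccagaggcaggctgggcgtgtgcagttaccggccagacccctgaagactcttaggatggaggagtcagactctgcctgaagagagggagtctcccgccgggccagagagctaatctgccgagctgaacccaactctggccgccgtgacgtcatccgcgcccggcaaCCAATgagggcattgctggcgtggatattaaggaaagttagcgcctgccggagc
RefSeq promoters of 300 bases (250 before to 50 after the start) matched 7 of the 9 genes, with a second start site for Pax6, and none was matched for Sparcl1 and Olig1. In these windows GGGNGGG was found in 5 genes, with 8 overlapping matches in Fabp7, most of them in a run of G, 4 each in Ptn and Serpine2 and 2 each in Olig2 and Gpm6b. This motif is in 48.1% of all 32851 RefSeq promoters of that length. CCAAT matched in Fabp7, Olig2, Ptn and Pax6 and is in 37.4% of all promoters. TGGGAA matched in Fabp7 and Ptn (25.6% of all), and a SOX motif in Olig2, Gpm6b, Serpine2 and the second start site of Pax6 (28.6% of all). Neither the POU octamer ATGCAAAT nor the E-box CACGTG was in any of the 8 windows, against 1.74% and 7.15% of all promoters. None of the 7 motifs searched, which also included TATAAA, was in the Nes window, and TATAAA was in that of Olig2 alone (13.6% of all). No match or lack of one was tied to the order of the falls.

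The progenitor levels set the starting point. Fabp7 had 3951 CPM in OKMS, 4009 in OKS, and 4526 and 3485 in the 2 WT libraries of R10, and 3623, 3666, 5207 and 2624 CPM in the R9 libraries. Serpine2 had the highest CPM of the 9 in 7 of the 8 NPC libraries, with Fabp7 above it in WT replicate 1 of R9. It was at 9863, 8926, 5182 and 6559 CPM in R10 and 6149.7, 5332, 3589.6 and 6069 CPM in R9. Pax6 was the least abundant, at 29.0, 27.5, 35.9 and 30.7 CPM in R10 and 14.7 to 29.6 CPM in R9. The other 6 genes lay between them, and CPM does not correct for length, so this order is one of read counts and not of molecules per length. Means over the 4 R10 NPC libraries (± SD, n = 4) were 1238 ± 161 CPM for Ptn, 839 ± 211 for Sparcl1 and 759 ± 231 for Gpm6b. Nes had 319.5 ± 47.5 CPM, Olig1 272 ± 57.7 CPM and Olig2 142.0 ± 21.9 CPM in the same libraries.

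To ask whether the genes already differed before induction, uninduced OKMS and OKS NPC were compared with WT NPC in R10. None of the 9 was called by limma, where a call needs a Benjamini-Hochberg adjusted p under 0.05 over all genes tested and a difference of at least 1 on the log2(CPM + 1) scale. Of 14017 genes tested, 1.51% were called. At an unadjusted p under 0.05 there were 2 of the 9, and edgeR and DESeq2 called none. Gpm6b was at 943 and 973 CPM in the factor lines and at 552 and 566 CPM in WT, without overlap, with 0.78 ± 0.12 (SE) between them in log2 (limma adjusted p = 0.018), under the fold threshold. Serpine2 was also higher in both factor lines, by 0.69 ± 0.15 (limma adjusted p = 0.066). The mitochondrial shares above separate the same R10 libraries, and their part in these differences was not tested. In R9 the Gpm6b values of the 2 groups overlapped, with 657 and 772 CPM in the factor lines and 607 and 759 CPM in WT.

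Against ESC, all 9 genes were lower in stem cells. limma called 9 of 9 in R10 (7 ESC against 4 NPC libraries), where 23.5% of 15415 genes tested were called lower. The genes were picked as progenitor markers with earlier results of these data known, so this count is a description and not an independent test. The log2 differences ran from -11.31 ± 0.68 (SE, adjusted p = 9.6e-10) for Fabp7 to -3.96 ± 0.37 (adjusted p = 1.4e-07) for Pax6. Olig2 had no read in any ESC library, so with 3 reads over the 7 R10 ESC libraries as the floor, NPC were at least 1026-fold higher. By pooled reads, Olig1 was 1935-fold higher in NPC (95% counting interval 661 to 9389, on 3 ESC reads), Ptn 1117-fold, Sparcl1 630.1-fold, Gpm6b 602-fold and Serpine2 325-fold. Nes and Pax6 kept the highest share in stem cells, at 46.8-fold (39.8 to 55.4) and 26.6-fold (17.9 to 41.4) over ESC. The summed transcript TPM of Nes in R10 was 0 to 0.426 in ESC, against 158.7 to 204.8 in NPC. All intervals cover counting error only.

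A single stem cell library stood above the others. The R1 library without n number had 21.7 CPM of Fabp7 (58 reads), while the other 6 R10 ESC libraries and both R9 ESC libraries had none, and it had the highest CPM among R10 ESC libraries for each of Ptn (5.23), Sparcl1 (4.85), Olig1 (0.747), Nes (11.6), Gpm6b (6.72), Serpine2 (42.6) and Pax6 (3.73). Its summed CPM over the 9 genes was 97.1, against 20.0 to 40.4 CPM in the other R10 ESC libraries. It is also the ESC library that shares the low mitochondrial share of the WT libraries, and the part of either in its levels was not tested. Without it, limma again called 9 of 9, and NPC were at least 25732.5-fold above ESC for Fabp7, against 1515-fold (1171 to 1995) over all 7 R10 ESC libraries and at least 2614-fold in R9. Without it Ptn was 2356-fold, Sparcl1 1034-fold, Gpm6b 1719-fold and Olig1 5101-fold higher in NPC, the last on 1 ESC read (915 to 201567). With it, DESeq2 left Fabp7 uncalled (adjusted p = 0.156) and edgeR called it. Nes was the 1 gene of the 9 with a called difference between the chemistries. The share of all genes with such a call was not counted. Nes was at 17.04 and 21.4 CPM in the R9 ESC libraries against 3.37 to 11.6 CPM in R10, and the R10 minus R9 difference of the log2 differences was -1.71 ± 0.43 (SE, limma interaction adjusted p = 0.032). For Serpine2 that difference was 1.30 ± 0.48 (limma adjusted p = 0.12) and for Olig1 0.84 ± 0.36 (limma adjusted p = 0.19).

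WT progenitors kept for 2 days in FBS-LIF with doxycycline had no reprogramming factors, so their changes arose without the factors. Medium, doxycycline and the 2 days of culture changed together and cannot be told apart. limma called 4 of the 9 genes lower and none higher in R10 (2 against 2 libraries), where 11.9% of 14688 genes were called lower and 14.9% higher. The 4 were Olig2, Olig1, Nes and Ptn. Olig2 went from 147.0 and 114 CPM in NPC to 3.52 and 5.27 CPM at day 2, a log2 difference of -4.62 ± 0.31 (SE, adjusted p = 0.0014). Olig1 went from 302 and 185 CPM to 54.0 and 39.9 CPM (-2.32 ± 0.31, adjusted p = 0.0061). Both genes thus left the range of the untreated libraries in each WT library, and the same held in R9, with 332 and 519 CPM of Olig1 in NPC and 55.2 CPM at day 2. Nes went from 384 and 281 CPM to 150.3 and 92.2 CPM (-1.47 ± 0.31, adjusted p = 0.021), and Ptn from 1322 and 996 CPM to 464 and 620.0 CPM (-1.10 ± 0.28, adjusted p = 0.037).

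The remaining 5 genes were not called in WT cells. Fabp7 had 2048 and 4840 CPM at day 2 against 4526 and 3485 CPM in NPC, so its groups overlapped (-0.33 ± 0.50, limma adjusted p = 0.66). Sparcl1 also overlapped, with 492 and 688.5 CPM at day 2 against 889 and 530.2 CPM. Serpine2 was below its NPC values in both libraries (3482 and 3429 CPM against 5182 and 6559 CPM), at -0.75 ± 0.36 (adjusted p = 0.16). Gpm6b was above its NPC values in both libraries, at 1051 and 1140.2 CPM against 552 and 566 CPM, a log2 difference of 0.97 ± 0.22 (adjusted p = 0.027) just under the fold threshold. Pax6 was at 115 and 38.5 CPM against 35.9 and 30.7 CPM (0.99 ± 0.52, adjusted p = 0.20), with the excess mostly in 1 library. Leaving out any 1 of the 4 WT libraries left 0 calls, or 1 (Olig2) without day 2 replicate 3, and in R9, with 1 day 2 library, there were 0 calls. The Ptn call was also lost with no filter (adjusted p = 0.052), median centring (0.060), edgeR (0.080) and quantile normalization, where Ptn was at -0.94 and Gpm6b was called higher at 1.12 (limma adjusted p = 0.0099).

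**Figure D1:**
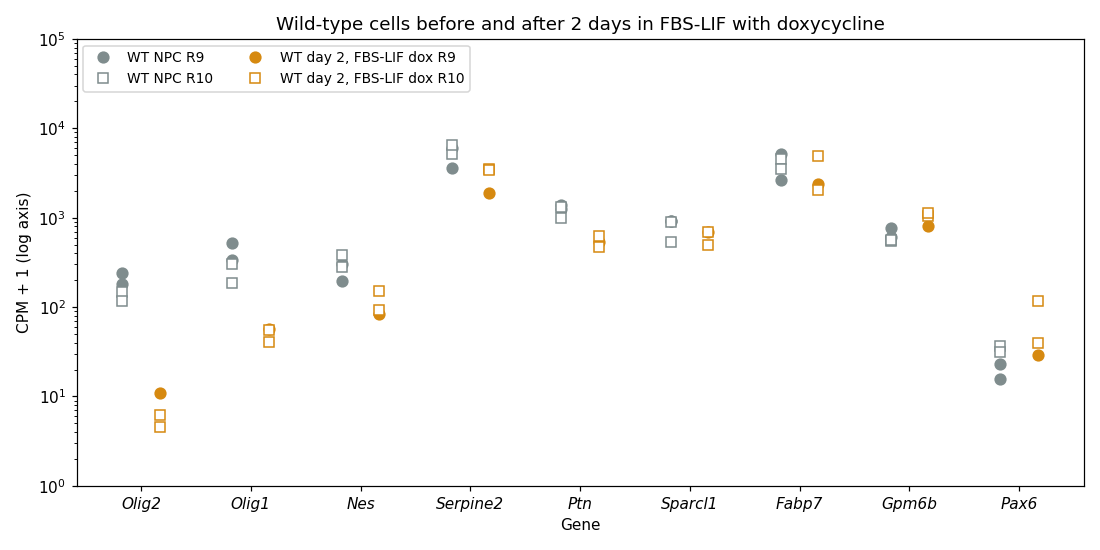
CPM + 1 on a log axis for each WT library in NPC medium (grey) and after 2 days in FBS-LIF with doxycycline (orange), with R9 filled and R10 open. Olig2, Olig1, Nes and Ptn lie below all their NPC values at day 2 in both chemistries, Fabp7 in R10 overlaps, and Gpm6b in R10 lies above.

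Other lists of genes were followed in the same WT cells, where 11.9% of all genes were called lower and 14.9% higher in R10. Of the 32 tested radial glia and progenitor genes, 4 were called lower and 5 higher, close to those shares. They were led by Id4 (5.51 on the log2 scale) and Sox3 (-3.40), with a list median of -0.22 against 0.12 for all genes. The summed level of that list was 10631 to 10814.5 CPM in WT NPC and 19077 to 20272 CPM at day 2 in R10, but 8858 and 11036 CPM in WT NPC and 11319 CPM at day 2 in R9. Of the 9 astrocyte genes, 5 were called higher and none lower, led by Gfap (8.12) and Clu (8.07), and their summed level went from 1298 to 1522 CPM in WT NPC to 10949 to 11544 CPM at day 2 in R10 and from 1012 and 1270.0 CPM to 6968 CPM in R9. In R10 the fibroblast and mesenchyme list summed to 21.3 to 40.5 CPM in WT NPC and 106 to 272 CPM at day 2, and in R9 to 97.8 and 222 CPM in WT NPC and 576 CPM at day 2. The neuron list summed to 215 to 315 CPM in WT NPC and 138 to 266 CPM at day 2 in R10, and to 243 and 386 CPM and 175 CPM in R9. The other oligodendrocyte lineage genes moved in both directions: of 5 tested in R10, 2 were called lower, led by Sox8 (-2.43), and 2 higher. Their summed level was 164 to 220 CPM in WT NPC and 197 to 246 CPM at day 2 in R10, and 93.6 and 144 CPM in WT NPC and 130.2 CPM at day 2 in R9. The part of these cells or states in the levels of the 9 genes was not tested.

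With the factors added in the same medium, the OKMS library of day 2 lay below every WT day 2 library for 9 of 9 genes in R10 and for 9 of 9 in R9. The OKS library did so for 3 of 9 in each chemistry. It was above WT for 6 of 9 in R9, and in R10 it was above both WT libraries for Olig2 and Gpm6b and between them for 4 genes. Gpm6b in OKS was below WT in R9, at 769 against 815 CPM. For example, R10 Fabp7 was at 1234 CPM in OKMS and 3069 CPM in OKS, with 2048 and 4840 CPM in WT. Olig1 was at 5.53 CPM in OKMS and 23.1 CPM in OKS, both below the 54.0 and 39.9 CPM of WT, but in R9 OKS was at 70.9 CPM and WT at 55.2 CPM. The counts out of 9 set 1 factor library against 1 WT library in R9 and 2 in R10. The share of all genes lying likewise was not counted, so the counts are descriptions. Taken as 1 group of 2 libraries against WT, the factor lines gave no call among the 9 by limma, edgeR or DESeq2, where limma called 0.74% of 15402 genes. Olig1 was the 1 gene at an unadjusted p under 0.05 (-1.92 ± 0.62, limma adjusted p = 0.19). Median centring, which moves all genes of a library together, gave 1 call. Other measures of the R10 OKMS library of day 2 also stood apart from WT: the astrocyte list summed to 3243 CPM against 10949 to 11544 CPM, the radial glia and progenitor list to 8680.2 CPM against 19077 to 20272 CPM, and the mitochondrial share was 1.51% against 0.165 to 0.319%. Their part in its low values was not tested.

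**Figure D2:**
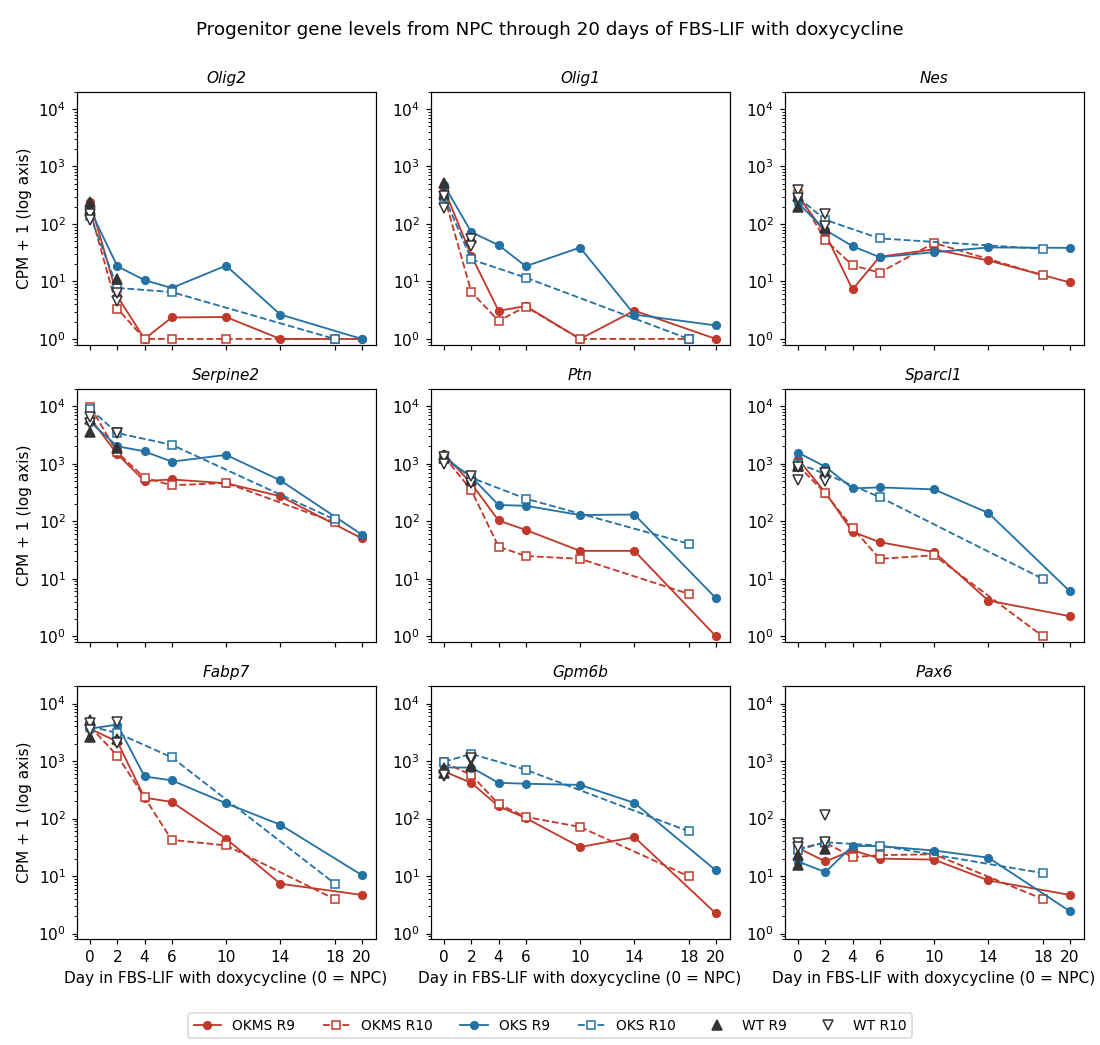
CPM + 1 on a log axis against the day in FBS-LIF with doxycycline for each of the 9 genes, with day 0 the NPC library of the same line, OKMS in red, OKS in blue, WT in black, R9 filled with solid lines and R10 open with dashed lines, and 1 library per point. The OKMS lines lie under the OKS lines for most genes from day 2 to day 14, and Pax6 shows no early fall like that of Olig1 and Olig2, with R9 OKS values of days 4 to 14 at 118 to 192% of day 0.

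Over the time course the 9 genes did not fall together. In R9 (OKMS and OKS as 1 library each per day, with the system as a term), limma called 2 of 9 lower than NPC at day 2, 6 at day 4, 7 at day 6, 8 at day 10, 8 at day 14 and 9 at day 20. Among all 19357 genes tested, 1.17%, 1.68%, 1.82%, 2.56%, 2.41% and 9.03% were called lower on those days. The median log2 difference of the 9 genes was -1.40 at day 2 and -7.68 at day 20, where that of all genes was 0 at both. The contrasts of the days share the 2 NPC libraries. The 2 systems also stand in as replicates of a day, so differences between their courses enter the spread. The first day of a call therefore does not rank the falls. At day 2 Serpine2 was called at 23.8% of day 0 in OKMS and 37.8% in OKS, and Olig1 was not at 6.78% and 15.1%. Early counts rested on few libraries: day 2 gave 0 calls without the OKMS or the OKS library of day 2 or the NPC OKMS library, and 1 without the OKMS or OKS library of day 6 or of day 14, while edgeR called 6 and DESeq2 5. The shares of all genes that edgeR and DESeq2 called at day 2 are not given here. The count at day 4 was 1 without the OKMS library of day 4. At day 6 it was 3 without NPC OKMS and 4 without either day 6 library, at day 10 3 without NPC OKMS and 4 without OKMS day 10, and at day 14 5 without OKS day 14.

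Olig2 and Olig1 had fallen furthest of the 9 genes at day 2, the first day sampled after induction. R9 Olig2 fell from 238 CPM in OKMS NPC to 4.52 CPM at day 2, and from 174 CPM in OKS NPC to 17.4 CPM, and in R10 it was at 2.37 CPM in OKMS and 6.72 CPM in OKS at day 2. These are 1.90% and 10.0% of the line's own NPC level in R9 and 1.42% and 4.83% in R10. limma called Olig2 lower at day 2 in R9 (-4.34 ± 0.93, adjusted p = 0.022). Olig1 was at 6.78% of day 0 in OKMS and 15.1% in OKS at day 2 in R9, and at 1.84% and 7.77% in R10, where it was the 1 gene of the 9 called lower at day 2 (-4.58 ± 0.66, adjusted p = 0.045, against 0.16% of 17487 genes). OKS kept some reads of both later on: at day 10 in R9 it had 37.9 CPM of Olig1 (17 reads) and 17.8 CPM of Olig2 (8 reads), and OKMS had 0 and 1 read. Of 7 other genes of the oligodendrocyte lineage tested at day 2 in R9, limma called none lower and none higher, with a median log2 difference of 0.50, where 1.17% of all genes were called lower. Across the 22 R9 libraries, which share conditions, Olig1 and Olig2 had a Pearson r of 0.97 in log2(CPM + 1).

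Pax6, the other transcription factor, behaved otherwise. R9 Pax6 in OKMS was at 29.6, 16.95, 27.1, 19.1, 18.3, 7.39 and 3.69 CPM at days 0, 2, 4, 6, 10, 14 and 20. In OKS it was at 16.9, 10.7, 32.4, 32.1, 26.8, 19.9 and 1.44 CPM on the same days. OKS values from day 4 to day 14 thus lay above the line's day 0 value, at 118 to 192% of it, on 10 reads at day 0 and 12 to 34 reads later. limma called Pax6 lower at day 20 (-2.79 ± 0.59, adjusted p = 0.0084) and not at an earlier day in R9, and that call was lost without NPC OKMS or without OKS day 20. In R10 it was called at day 18 (-2.13 ± 0.51, adjusted p = 0.036), at 10.2% of day 0 in OKMS and 37.3% in OKS. The transcript table lists 22 Pax6 transcripts, of which 7 hold an exon of 42 bases, the length of the alternative exon of the paired domain, and the 2 with the highest mean TPM are non-coding transcripts of 2 exons inside the gene.

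The progenitor structural and lipid-binding genes followed at different speeds. R9 Nes in OKMS dropped to 21.7% of day 0 at day 2 and to 2.04% (3 reads) at day 4, then lay at 8.45%, 11.5%, 7.22% and 2.81% at days 6, 10, 14 and 20. In OKS it stayed at 11.1 to 17.5% from day 4 to day 20, with 37.4 CPM (52 reads) at day 20. The summed transcript TPM of Nes was 0 in R9 OKS at days 4, 6, 10 and 14 and 2.71 at day 20. What the reads behind these CPM values hold was not tested. Nes was called lower from day 4 on (-3.95 ± 0.63, limma adjusted p = 0.0038, at day 4). Fabp7 was still at 59.9% in OKMS and 118% in OKS at day 2 in R9, then at 6.34% and 14.7% at day 4. Between days 2 and 4 it went from 2169.8 to 229.5 CPM in OKMS and from 4308 to 539 CPM in OKS, the steepest step per day on the log scale of its R9 course in both systems. In R10 it was already at 31.2% in OKMS and still at 76.5% in OKS at day 2, and OKMS went from 232 CPM at day 4 to 41.5 CPM at day 6. It was called lower from day 4 (-3.37 ± 0.57, adjusted p = 0.0053) and reached 3.69 CPM (3 reads) in OKMS and 9.34 CPM (13 reads) in OKS at day 20.

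The secreted proteins differed in pace. R9 Serpine2 in OKMS was at 23.8% of day 0 at day 2, 8.11% at day 4, 8.65% at day 6, 7.43% at day 10, 4.41% at day 14 and 0.80% at day 20. In OKS it was at 37.8%, 30.7%, 20.4%, 26.7%, 9.62% and 1.08% on those days. It was called lower from day 2 on (-1.74 ± 0.43, limma adjusted p = 0.043). Ptn fell to 30.5% in OKMS and 47.2% in OKS at day 2 and was at 2.00% and 10.4% at day 14. It was called from day 4 (-3.27 ± 0.53, adjusted p = 0.0040), and no Ptn read was left in OKMS at day 20. For R9 Sparcl1 the systems lay apart on each sampled day to day 14: OKMS was at 26.2%, 5.42%, 3.54%, 2.36% and 0.27% at days 2, 4, 6, 10 and 14, and OKS at 57.0%, 23.9%, 24.9%, 22.9% and 8.88%. It was called lower from day 6 (-3.40 ± 0.82, adjusted p = 0.036).

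Gpm6b, the membrane glycoprotein, was the slowest after Pax6 to reach 50% of its NPC level. R9 OKMS was at 63.3%, 24.8%, 15.4%, 4.71%, 7.07% and 0.19% of day 0 at days 2, 4, 6, 10, 14 and 20. R9 OKS was at 99.5%, 54.1%, 52.0%, 49.7%, 24.1% and 1.49%. In R10, OKS reached 137% at day 2, with 1329.6 CPM against 973 CPM in its NPC library, and the WT libraries of day 2 were also above their NPC level. Gpm6b was called lower from day 10 in R9 (-2.69 ± 0.59, limma adjusted p = 0.020). In R10, where days 2, 6 and 18 were tested, 3 of the 9 were called at day 6 (Olig1, Olig2 and Nes, against 0.589% of genes) and all 9 at day 18 (8.54% of genes).

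The order of the falls was summarised by the day at which each gene first reached 50% of its own NPC level, interpolated on the log2(CPM + 1) scale between sampled days, so values under 2 rest on the step from day 0 to day 2 alone. In R9 OKMS these days were 0.37 for Olig2, 0.52 for Olig1, 0.91 for Nes, 0.96 for Serpine2, 1.04 for Sparcl1, 1.17 for Ptn, 2.16 for Fabp7, 2.50 for Gpm6b and 10.95 for Pax6. The earliest days depend on the scale: on linear CPM they were 1.02 for Olig2 and 1.07 for Olig1 in R9 OKMS, ahead of 1.28 for Nes, and in R10 OKMS 1.01 for Olig2 in place of 0.35. In R9 OKS they were 0.61, 0.74, 1.28, 1.42, 2.30, 1.85, 2.82, 9.44 and 16.2 for the same genes. OKMS was earlier for 9 of 9 genes in both chemistries, and the order of the genes was much the same in the systems, with a Spearman rho over the 9 genes of 0.98 in R9 and 0.97 in R10. The share of all genes that were earlier in OKMS was not counted. The NPC levels of each line enter its own values, and there is 1 library per point, so neighbours such as Nes, Serpine2, Sparcl1 and Ptn in OKMS are not separated by this measure. A similar order stood in WT cells of day 2 without factors. In R9 they were at 4.76% of their NPC mean for Olig2, 13.0% for Olig1 and 33.8% for Nes. Serpine2 was at 39.6%, Ptn at 40.1%, Fabp7 at 60.5%, Sparcl1 at 76.4%, Gpm6b at 119% and Pax6 at 153%. In R10 WT, Olig2 (2.69 and 4.03%) and Olig1 (22.2 and 16.4%) were again lowest. The part of the medium in the order was not tested. In R10, Gpm6b reached 50% at day 2.33 in OKMS and 7.80 in OKS, and Fabp7 at 1.19 and 3.75. After day 0, R10 OKS was sampled only at days 2, 6 and 18, and R10 OKMS also at days 4 and 10. R10 OKS days above 6 thus rest on the step from day 6 to day 18 alone and depend on the scale. On linear CPM, R10 OKS reached 50% of Gpm6b at day 10.06, and 10% of Fabp7 at day 13.9 in place of 8.52. The level of 10% was reached in both systems by 7 genes, all earlier in OKMS, with a rho of 0.82 in R9 and 0.68 in R10. Serpine2 took until day 3.61 in OKMS and 13.8 in OKS to reach it in R9. In FBS-LIF with doxycycline, the only medium used for this measure, Nes never reached 10% in OKS, and Pax6 did not reach it in OKMS.

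**Figure D3:**
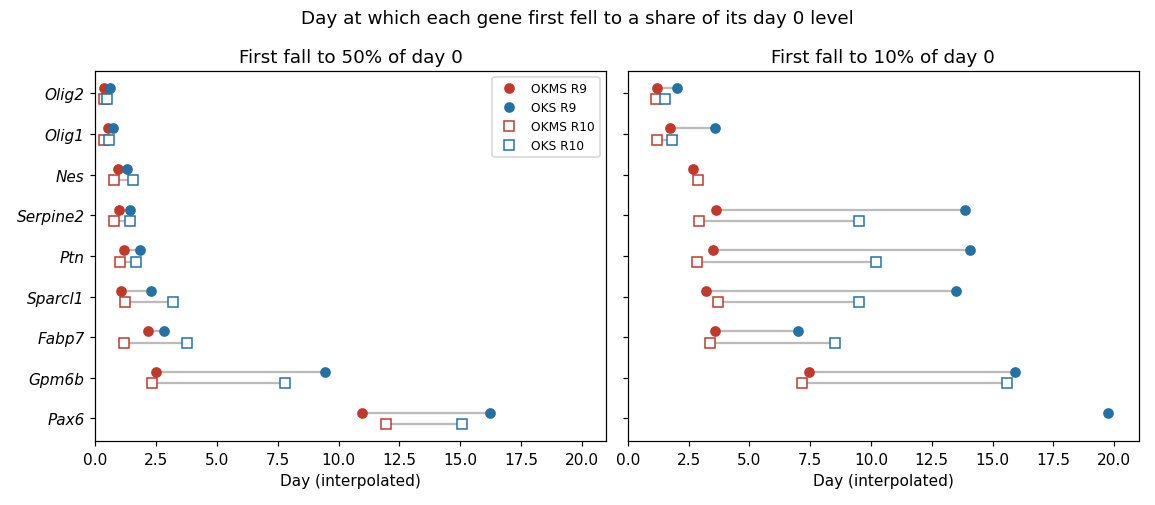
Interpolated day at which each gene first fell to 50% (left) or 10% (right) of its day 0 level, with OKMS in red, OKS in blue, R9 filled, R10 open and a grey bar joining the systems of a chemistry. The OKMS symbol is to the left of the OKS symbol for all 9 genes at 50%, and a missing symbol (Nes in OKS, Pax6 in OKMS and in R10 OKS at 10%) marks a level not reached by the last sampled day in FBS-LIF with doxycycline.

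At matched days OKMS cells were lower than OKS cells for most of the genes. With day as a block over 6 R9 pairs, limma called 6 of 9 lower in OKMS and none higher, where 11.0% of 14277 genes were called lower and 6.93% higher. The log2 differences were -2.88 ± 0.38 (SE, adjusted p = 0.00081) for Sparcl1, -2.22 ± 0.62 (0.018) for Olig1, -2.05 ± 0.28 (0.00087) for Gpm6b, -1.87 ± 0.49 (0.014) for Olig2, -1.68 ± 0.27 (0.0015) for Fabp7 and -1.51 ± 0.25 (0.0016) for Ptn. The median of the 9 was -1.68, against -0.11 for all genes. Serpine2 passed on p (adjusted p = 0.0043) with a difference just short of the fold threshold, and was called when day 2, day 14 or day 20 was left out. Nes (-0.88 ± 0.35, adjusted p = 0.077) and Pax6 (-0.21 ± 0.35, adjusted p = 0.69) were not called. These p-values treat successive days, with 1 library per system, as replicates, and the days may not be independent. A difference between the lines or cultures cannot be told from that between the factor sets. Levels at day 0 were not adjusted for, where the R9 OKS to OKMS ratio ran from 0.569 for Pax6 to 1.30 for Sparcl1.

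The size of the gap varied by day and gene. Among genes above 0 in both libraries, the median OKS to OKMS ratio in R9 was 1.85 at day 2, 2.93 at day 4, 2.65 at day 6, 4.25 at day 10, 3.35 at day 14 and 3.31 at day 20. In R10 it was 2.27 at day 2, 5.87 at day 6 and 3.24 at day 18. Pairs with OKMS at 0 have no ratio, such as Olig1 at day 10 in R9 (0 against 37.9 CPM) and Sparcl1 at day 18 in R10 (0 against 8.96 CPM). Among the ratios that could be formed, Sparcl1 had the largest in R9, 43.6 at day 14, with 138 CPM in OKS and 3.17 CPM (3 reads) in OKMS. Fabp7 had the largest in R10, 27.9 at day 6, with 1160 CPM in OKS and 41.5 CPM in OKMS, where R9 had 461 and 194 CPM. Of the 32 tested radial glia and progenitor genes, 22 were called lower in OKMS and none higher (list median -1.33), where 11.0% of all genes were called lower and 6.93% higher. The astrocyte list had 5 of 9 genes lower and 1 higher in OKMS, the fibroblast and mesenchyme list 4 of 6 lower, and the pluripotency list 6 of 12 higher and none lower. How far these shifts carry the difference in the 9 genes was not tested. The 3 R10 pairs gave no call for any gene by limma, days 10 to 20 alone gave 1 (Gpm6b), and without day 4 there were 4.

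Cells moved to 2i-LIF had little left of the progenitor genes. Summed over the 9 genes, the CPM was 0.232% of the NPC mean of the same chemistry in OKMS at day 14, 0.245% at day 20 and 0.0695% at day 18 (R10), and 0.831% in OKS at day 20 and 0.822% at day 18. The ESC libraries lay at 0.131 to 0.265%, apart from the R1 library without n number at 0.638%. Cells that had stayed in FBS-LIF with doxycycline were at 0.514% (OKMS) and 0.961% (OKS) at day 20, and at 0.828% and 1.75% at day 18. At day 14 they were at 2.95% (OKMS) and 8.40% (OKS). No Olig2 read was found in any of the 5 2i-LIF libraries, with a floor of 3 reads at 3.22 to 5.29 CPM, and Olig1 had 1 read in 1 of them.

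In OKS cells in 2i-LIF, Fabp7 and Serpine2 had the highest CPM. Fabp7 was at 37.2 CPM (32 reads) at day 20 in R9 and 39.1 CPM (25 reads) at day 18 in R10, 1.02% and 0.976% of the NPC level of the line. Serpine2 was at 29.1 and 36.0 CPM, 0.546% and 0.403% of that level. As a share of the NPC level Nes was higher, at 5.58% and 6.54%. Against the NPC mean of the chemistry, these Nes values were 4.97% in R9 and 5.87% in R10. ESC stood at 6.61 and 8.31% in R9, above OKS, and at 1.06 to 3.62% in R10, below it. The summed transcript TPM of Nes was 0 in every 2i-LIF library of OKS and OKMS. The 3 OKMS libraries in 2i-LIF had 4.89, 4.30 and 0 CPM of Fabp7 (4, 4 and 0 reads), all below both OKS values. In OKS Fabp7 was also higher in 2i-LIF than in the partner kept in FBS-LIF with doxycycline, which had 9.34 CPM at day 20 and 6.40 CPM at day 18, ratios of 3.99 and 6.11. Gpm6b (18.8 CPM), Ptn (9.39 CPM), Nes (18.8 CPM) and 1 read each of Sparcl1 and Pax6 were also found in OKS at day 18, and Sparcl1 (15.1 CPM), Nes (12.8 CPM), Ptn (9.31 CPM), Gpm6b (4.66 CPM) and 1 read of Olig1 in OKS at day 20. OKS and OKMS cells in 2i-LIF were 2 and 3 libraries from different days and chemistries, and their difference was not tested.

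Over the 5 pairs of 2i-LIF and FBS-LIF with doxycycline (same chemistry, system and day), limma called 3 of the 7 genes tested lower in 2i-LIF, where 12.3% of 14935 genes were called in either direction and 6.32% lower. Olig1 and Olig2 were too low to be tested. Serum, the kinase inhibitors and possibly doxycycline differ within a pair and cannot be told apart. Serpine2 had the largest fall, -2.63 ± 0.41 (SE, adjusted p = 0.00026), and was lower in 2i-LIF in each pair. At day 14 in R9 OKMS it was at 8.55 CPM in 2i-LIF and 271 CPM in FBS-LIF, and at day 20 in R9 OKS at 29.1 and 57.5 CPM. Gpm6b (-2.03 ± 0.50, adjusted p = 0.010) and Pax6 (-1.93 ± 0.48, adjusted p = 0.011) were also called and were lower in each pair. Pax6 had 0 or 1 read in each 2i-LIF library and 2 to 8 in the partners, and Gpm6b at OKMS day 20 had 0 against 1 read. Some of these pairs thus lay at or under the floor of 3 reads in both libraries. Fabp7 (0.44 ± 0.56, adjusted p = 0.67), Nes (-0.90 ± 0.39, adjusted p = 0.14), Ptn and Sparcl1 were not. On the recovered reads edgeR called 5, with Ptn lower and Fabp7 higher in 2i-LIF, and DESeq2 called 2. The shares of all genes that edgeR and DESeq2 called are not given here, so these counts are descriptions. Without the pair of OKMS day 14 limma called Serpine2 alone.

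**Figure D4:**
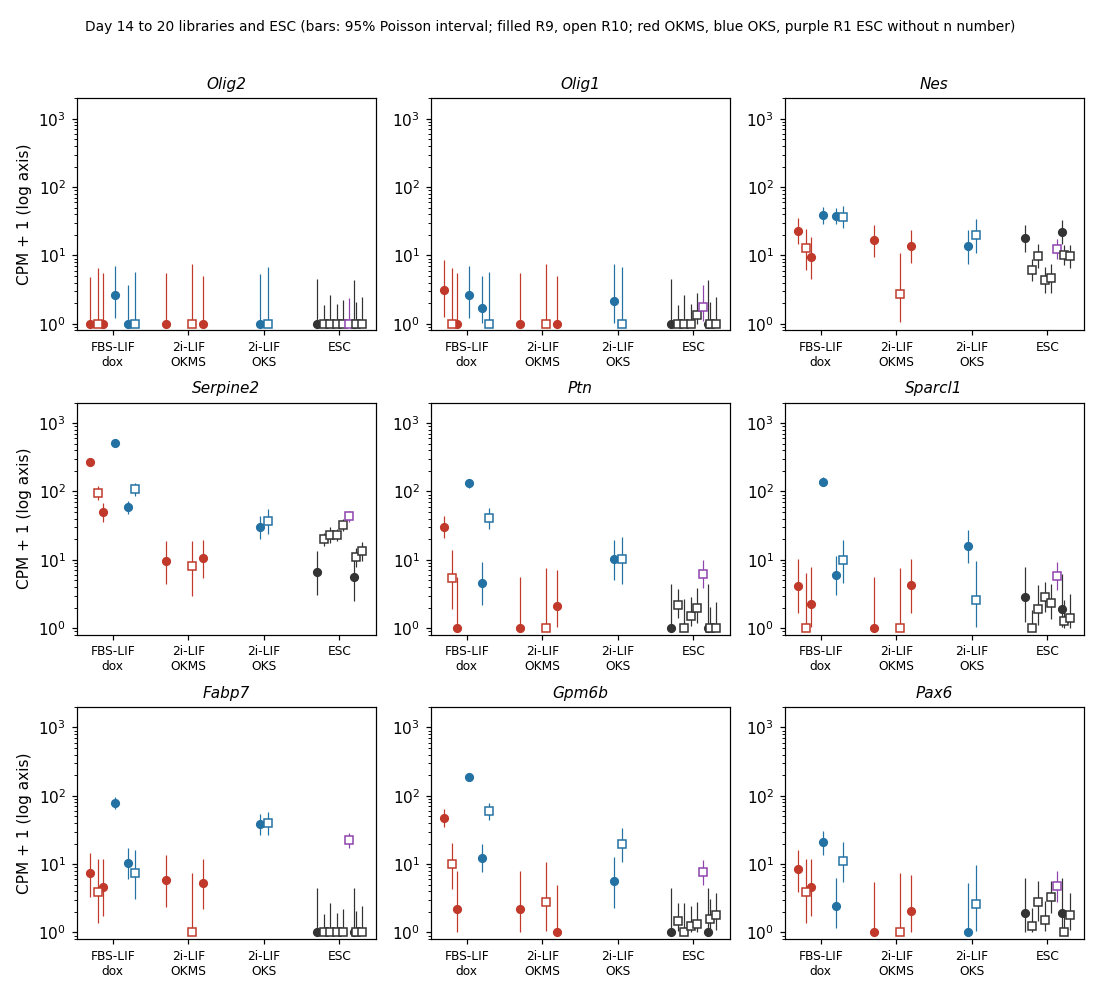
CPM + 1 on a log axis with 95% Poisson intervals (counting error only) for each library of days 14 to 20 in FBS-LIF with doxycycline, each 2i-LIF library and each ESC library, with OKMS in red, OKS in blue, R9 filled and R10 open. Fabp7 in the 2 OKS libraries in 2i-LIF and in the R1 ESC library without n number (purple) stands at 21.7 to 39.1 CPM, and the other ESC libraries are at 0.

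Compared with ESC in the same medium, the 2 R10 2i-LIF libraries gave no call among the 7 genes tested, by limma, edgeR or DESeq2. limma called 9.06% of 15880 genes in this comparison (1438), but edgeR 270 and DESeq2 453, and the 2i-LIF libraries were several times shallower than the ESC libraries. At an unadjusted p under 0.05 there was 1 gene, Gpm6b (2.07 ± 0.75, limma adjusted p = 0.089), at 18.8 and 1.76 CPM in 2i-LIF and 0 to 6.72 CPM in ESC. Without the R1 library without n number, or without the OKMS library, limma called Gpm6b higher (2.42 in the former). Without the OKMS library 1 library is left on the 2i-LIF side, with 12 reads of Gpm6b, and is assumed to vary like the ESC libraries, and with the shallow 2i-LIF libraries limma called several times more genes than the count tests. Fabp7 differed by 2.02 ± 1.27 (adjusted p = 0.32), the values being 39.1 and 0 CPM against 0 CPM in 6 ESC libraries and 21.7 CPM in 1. Serpine2 at 36.0 and 7.05 CPM lay around the 9.86 to 42.6 CPM of ESC, and Nes at 18.8 and 1.76 CPM around the 3.37 to 11.6 CPM of ESC. In R9, with 3 libraries in 2i-LIF and 2 of ESC, limma called none of the 6 genes tested (110 of 15479 genes called), and their median log2 difference was 1.23. Fabp7 was at 4.89, 4.30 and 37.2 CPM in 2i-LIF and at 0 in both ESC libraries, without overlap, with a difference of 3.41 ± 0.80 (limma adjusted p = 0.085). Fabp7 and Serpine2 (1.24 ± 0.53, limma adjusted p = 0.39) were the 2 genes at an unadjusted p under 0.05.

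The transcript table, whose values are TPM (reads per transcript, scaled to library size by the authors), broke the genes into assembled isoforms. Their number ran from 12 for Olig1 to 219 for Serpine2. The leading transcript of Olig1 was its known single-exon transcript of 2278 bases, with 63.4% of the gene's TPM in R9 NPC and 63.1% in R10. For Gpm6b, the leading transcript was a known 7-exon coding transcript of 1464 bases (22.5% in R9 and 41.8% in R10), and a second 7-exon transcript with splice sites outside the annotation took 49.1% in R9 and 10.8% in R10. For Fabp7 the leading transcript, of 5 exons with a splice site outside the annotation, held 12.9% in R9 and 21.8% in R10. The annotated 4-exon Fabp7 transcript held 15.5% and 14.3%, and for Nes a partial 2-exon transcript over the end of the gene held 75.0% and 81.7%. Summed TPM and CPM did not keep 1 ratio over the genes: in NPC the former was 0.108 of the latter for Fabp7 and 1.95 times it for Serpine2. Levels of different genes were therefore not compared in TPM.

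Isoform shares at day 2 (WT, OKMS and OKS) were compared with NPC over both chemistries in the 5 genes with enough TPM. limma called a change of at least 10 percentage points in 2 of the 5, where 11.1% of 3083 genes had such a call. The leading Sparcl1 transcript, a fragment of 1318 bases from the start of the gene, fell by 12.3 ± 3.07 points (SE, adjusted p = 0.030), from 54.5 ± 2.14% (SD, n = 4) to 38.9 ± 5.38% (n = 3) in R9 and from 66.7 ± 4.598% to 57.3 ± 5.60% (n = 4 each) in R10. A Gpm6b transcript rose by 11.8 ± 3.19 points (adjusted p = 0.044), from 8.62 ± 1.39% (SD, n = 4) to 20.9 ± 13.2% (n = 3) in R9 and from 17.7 ± 1.76% to 28.9 ± 3.001% (n = 4 each) in R10. The total behind these shares includes the Gpm6b transcript with splice sites outside the annotation, which held 49.1% in R9 NPC and was listed at 0 in OKMS and OKS at day 2. A share of the rest rises when it is listed at 0, and its part in this rise was not tested. For Ptn, Fabp7 and Serpine2 none was called. Neither chemistry alone called any of the genes, and leaving out 1 library left 0 or 1.

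For Serpine2, transcript and gene values moved apart. A 2-exon transcript of 546 bases with an unannotated splice site, classed as non-coding, made up 64.2 to 91.2% of Serpine2 TPM in the 8 NPC libraries. It was still at 73.3 to 89.7% in the WT and OKS libraries of day 2, was listed at 0 in OKMS at day 2 in both chemistries, and was listed at 0 in all later OKMS and OKS libraries and in ESC. The summed TPM of Serpine2 in R10 OKMS went from 22179.6 to 364 between NPC and day 2 while its CPM went from 9863 to 1569.8, with 1986 reads left. The ratio of summed TPM to CPM was 1.31 to 2.79 wherever the transcript was listed and at most 0.69 in the other libraries with 20 CPM or more. Of 1282 transcripts with at least 50 TPM in all NPC libraries, 25 to 81 were listed at 0 in each other library. They were picked by their NPC level, so this count cannot tell a failed estimate from a real fall. The Gpm6b transcript with unannotated splice sites was likewise listed at 0 in OKMS and OKS at day 2 and above 0 in all NPC and WT libraries, in both chemistries. Nes values split as well. The Nes ratio of summed TPM to CPM was 0.526 to 0.721 in NPC and 0.621 to 0.678 in WT at day 2. In OKMS and OKS at day 2 it was 0.053 to 0.100, and later 0 to 0.245. Whether CPM or TPM follows Nes better was not tested. Silencing was therefore read from CPM.

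**Figure D5:**
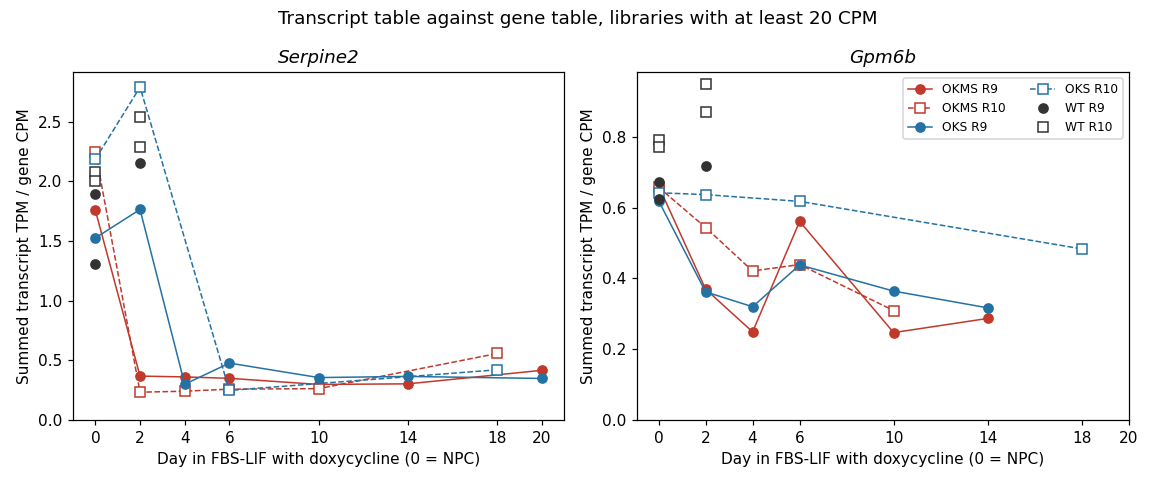
Ratio of summed transcript TPM to gene CPM for Serpine2 (left) and Gpm6b (right) against the day, in NPC and FBS-LIF libraries with at least 20 CPM of the gene (2i-LIF and ESC not drawn), with OKMS in red, OKS in blue, WT in black, R9 filled and R10 open. The Serpine2 ratio is between 1.31 and 2.79 in NPC, WT and OKS day 2 and between 0.23 and 0.56 in the other libraries drawn.

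The course of each gene was matched against 11292 other genes with at least 10 CPM in 4 or more R9 libraries, by Pearson r of log2(CPM + 1) over the 22 R9 libraries, with r over the 23 R10 libraries beside it. These are descriptions, since the libraries share conditions. Nearest to Fabp7 was Ank2 (0.96 in both), to Sparcl1 were Sema6d (0.98 and 0.96) and Gpm6a (0.97 and 0.98), and to Gpm6b were Fam102b (0.98 and 0.96) and Fam149a (0.98 and 0.96). Nearest to Ptn were Emcn (0.97 and 0.92) and a joined gene of Ptn and Dgki (0.97 and 0.95), which can share reads with Ptn and was also second to Fabp7. Olig1 was nearest to Gm3764 and Gria4 (0.97 each in R9), Olig2 to Spon1 (0.97) and Lmcd1 (0.96), and Nes to Mmp15 (0.93) and Fbln2 (0.92). Serpine2 was nearest to Olfm2 and Serpinh1 (0.98 each), and Pax6 to Commd3 (0.96) and Tspan12 (0.95). Among the 9 genes themselves the R9 r ran from 0.49 for Nes with Pax6 to 0.98 for Gpm6b with Serpine2.

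Of the other radial glia and progenitor genes, limma called 0, 5, 6, 8, 15 and 25 of 35 lower than NPC at days 2, 4, 6, 10, 14 and 20 in R9, and 2, 2, 2, 1, 1 and 1 higher, with list medians of -0.38 at day 2 and -3.51 at day 20. Among all genes, 1.17%, 1.68%, 1.82%, 2.56%, 2.41% and 9.03% were called lower on those days. In ESC against NPC, where 23.5% of all genes were called lower, 27 of 32 were lower and 2 higher, with Ccnd2 (-9.28) and Tnc (-9.05) the largest falls. In 2i-LIF against FBS-LIF, where 6.32% of all genes were called lower, 9 of 26 were lower and 1 higher. In 2i-LIF cells against ESC 3 of 25 were higher and 2 lower, led by Ccnd2 (3.07, limma adjusted p = 0.014), where limma called 9.06% of all genes and, as above, more than the count tests did. Of the other oligodendrocyte lineage genes, 4 of 6 were lower and 1 higher in ESC than in NPC, led by Sox8 (-6.55), and in R9 0, 0, 0, 1 and 2 of 7 were lower than NPC at days 4, 6, 10, 14 and 20, and 1 was higher at day 10. The shares of all genes called lower are those just given for ESC and for each day. In OKMS against OKS, where 11.0% of all genes were called lower, 2 of 5 were lower, led by Cspg4 (-2.14), and none of the 3 tested was called in either 2i-LIF comparison.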

How the data were processed

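Gene levels were deposited by the authors as CPM in a table named after IsoQuant, and transcript levels as TPM. Per the submitters' processing notes reads were aligned with minimap2 2.24-r1122 to mm10. How a read was assigned to a transcript is not given in the sources used here. All 711452 values above 0 in the gene table were whole multiples of 1 read within 0.02, so reads were recovered. In the tables, 13 columns of per-sample values matched no library and were not used.

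The 9 genes and all gene lists were chosen with earlier results of these data known. log2(CPM + 1) was tested with limma 3.58.1 (R 4.3.3, trended empirical Bayes) on genes with at least 1 CPM in as many libraries as the smaller group, with Benjamini-Hochberg adjustment over all genes. Every adjusted p is limma's unless another tool is named. A call needed an adjusted p under 0.05 and a log2 difference of at least 1, a scale that understates changes of low genes. Isoform shares were tested in genes with at least 10 TPM. edgeR 4.0.16 and DESeq2 1.42.0 ran on the recovered reads as alternatives, beside other pseudocounts, filters and scalings, the other chemistry and each library left out. Fits were tested on simulated data. In that test limma called too many unchanged low genes for 2i-LIF cells against ESC. Named list genes are the largest called change or changes of each list, and nearest genes the highest r in R9. Replicate numbers were not taken as pairs, since only the numbers are shared. A single gene of the oligodendrocyte lineage list enters its counts and sums and is not reported here.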

Additional observations from a re-analysis of the deposited data

Results flagged for a closer look

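In groups of 4 to 10 libraries, a gene was singled out where the highest or lowest library stood far from the others by Dixon's ratio. Of 27 groups tested, 6 had such a library. The nominal rate of about 1 in 20 holds for independent, normally distributed values. CPM of correlated genes in the same libraries, with many at 0 in ESC, are not such values, so the 2 are not compared. In R10 NPC, WT replicate 3 was low for Ptn, at 996 CPM against 1299.9 to 1332 CPM in the other 3 libraries, and for Olig1, at 185 CPM against 298 to 302 CPM. In R10 ESC, the R1 library without n number was high for Fabp7 (21.7 CPM), Ptn (5.23 CPM), Sparcl1 (4.85 CPM) and Gpm6b (6.72 CPM), where the highest of the other 6 libraries had 0, 1.18, 1.82 and 0.775 CPM. Its Olig2 count was 0.

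The fall of Nes from NPC to ESC differed between the chemistries, with R10 minus R9 at -1.71 (limma interaction adjusted p = 0.032). The other 8 genes had no such call, which does not show that they were alike. How many of all genes had one was not counted.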

How the results depend on the processing

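With log2 differences throughout, no called result for the 9 genes changed direction under any alternative run: of 726 values with a library left out, 71 missed the threshold, and of 552 other values, 54 did. Counts of the 9 genes called moved most as follows, given without the share of all genes called in each alternative. Medium: 3 lower with no filter, with median centring and by edgeR (without Ptn), 3 lower and 1 higher (Gpm6b) with quantile normalization, 0 in R9, and 0 to 1 with a library left out. Factors at day 2: 1 with median centring. Day 2: 1 with pseudocount 0.25, 1 with quantile normalization, 4 with median centring, 6 by edgeR, 5 by DESeq2, 0 with no system term, 1 in R10, and 0 to 2 with a library left out. With no system term, day 4 gave 2, day 6 gave 3, day 10 gave 3 and day 14 gave 5, and day 6 in R10 gave 3. Smaller moves were 5 to 8 at day 4, 6 to 8 at day 6, 8 for ESC against NPC by DESeq2, 4 for OKMS against OKS with a minimum of 5 CPM, and 2 for 2i-LIF against FBS-LIF with that minimum or by DESeq2. With a library left out, day 4 gave 1 to 7, day 6 gave 3 to 8, day 10 gave 3 to 8 and day 14 gave 5 to 8. OKMS against OKS: 0 in R10 pairs, 1 for days 10 to 20, and 4 to 7 without 1 day. 2i-LIF against FBS-LIF: 5 by edgeR, 1 in R9 pairs, 1 in R10 pairs, and 1 to 4 without 1 pair. 2i-LIF cells against ESC: 1 with numbered ESC only, and 0 to 1 with a library left out. Isoform shares: 1 with a gene total of 5 TPM, 0 in R9, 0 in R10, and 0 to 1 with a library left out. For medium, the fit with a replicate block called 4. Same-numbered libraries deviated together with a correlation of 0.47 over the 2 pairs, which share only a number. The cause of these moves was not tested, beyond the fewer libraries in each smaller fit.

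Some uncalled values changed sign. Uninduced: Fabp7 -0.10 with median centring, -0.084 by edgeR, -0.072 by DESeq2, -0.020 in R9 and -0.0087 in both chemistries, Nes 0.14 in R9 and 0.018 in both, Olig2 -0.019 in R9, and Pax6 0.29 in R9 and 0.032 in both. Pax6 was 0.39 at day 2 in R10, and -0.19 with median centring and -0.064 in R10 at day 6. Fabp7 was 0.37 for factors at day 2 in R9. Sparcl1 in 2i-LIF against FBS-LIF was 0.057 by edgeR and 0.094 in R9 pairs. For 2i-LIF cells against ESC, Nes was 0.50 by edgeR, 0.58 by DESeq2 and 0.061 with numbered ESC, and in R9 Serpine2 was 1.24 and Sparcl1 0.79.

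With a library left out, uncalled values crossed 0 in these ranges. Medium: Fabp7 -0.96 to 0.29, Sparcl1 -0.61 to 0.13. Factors at day 2: Ptn -0.64 to 0.088, Sparcl1 -0.94 to 0.19, Olig2 -0.66 to 0.54, Gpm6b -0.94 to 0.28. Uninduced: Fabp7 -0.19 to 0.19, Ptn -0.0074 to 0.40, Olig1 -0.014 to 0.69, Nes -0.33 to 0.12. Day 2: Fabp7 -1.08 to 0.58, Gpm6b -1.24 to 0.57. Pax6 was -0.10 to 0.88 at day 4, -0.35 to 0.63 at day 6, -0.51 to 0.48 at day 10 and -0.44 to 0.014 in OKMS against OKS. 2i-LIF against FBS-LIF: Fabp7 -0.061 to 1.05, Sparcl1 -0.77 to 0.10. 2i-LIF cells against ESC: Fabp7 -0.64 to 4.68, Ptn -0.76 to 2.61, Sparcl1 -1.002 to 0.36, Nes -1.48 to 1.36, Serpine2 -1.43 to 0.77, Pax6 -1.03 to 0.33. The day of reaching 50% in OKS, an alternative chosen after seeing the data, moved for Gpm6b to 7.80 in R10 (10.06 there on linear CPM) and for Pax6 to 17.7 on linear CPM and 15.1 in R10. On linear CPM, days under 2 moved most in proportion, in R9 OKMS to 1.02 for Olig2 and 1.07 for Olig1, and in R10 OKMS to 1.01 for Olig2.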
